A study of Mus musculus with 4 samples.

Results

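The genes described here are 34 genes by which T lymphocytes and natural killer (NK) cells are usually recognised. They were chosen by symbol, and all 34 were among the 24411 gene rows of each of the 4 tables. RNA was sequenced from B220-positive B cells sorted by flow cytometry from the marrow of mouse hind limb bones. The 4 libraries form 2 groups of 2. One group is labelled wildtype and the other Arid5b overexpression, Arid5b being a member of the ARID family of DNA-binding proteins. The labels give no strain, age, treatment or promoter for the Arid5b allele, and they do not say how many mice made up a library, so p-values measure the spread between these libraries. Reads counted in genes came to 20146878 and 14196665 for wildtype libraries 1 and 2, and to 15281839 and 20356404 for the overexpression-labelled pair.

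T cells recognise antigen through a receptor whose signal is passed on by the CD3 chains and the kinases Lck and Zap70, while NK cells use receptors encoded in the germline and kill with perforin and granzymes. A B220 sort enriches B cells, but B220 is also carried by plasmacytoid dendritic cells and by some NK and activated T cells of the mouse. Some of the 34 genes are also read in B cells themselves. Cd2 is a normal surface protein of mouse B cells, Cd5 marks the B-1 subset, and Zap70, Lck and Lat have been described in B lineage cells.

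The 2 overexpression-labelled libraries were unlike in Arid5b itself. It had 2993 and 2465 reads in wildtype libraries 1 and 2, 58127 in overexpression-labelled library 1 and 2770 in overexpression-labelled library 2. Library 1 of that label rose by 4.41 on the log2 scale (limma adjusted p = 1.28e-11), and library 2 differed from wildtype by -0.22 (limma adjusted p = 0.493). The comparisons below therefore set each of these libraries alone against the wildtype pair, beside the comparison of the groups. A lone library has no spread of its own, so its test takes the spread from the wildtype pair and compares that library, not the genotype.

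T and NK cell genes were low but present in 3 libraries and mostly lost from overexpression-labelled library 1. The 34 genes together had 8606 and 6214 reads in wildtype libraries 1 and 2, 1042 in overexpression-labelled library 1 and 7162 in overexpression-labelled library 2. As CPM (reads scaled to the library total), the sums were 427 and 438 in wildtype, against 68.2 in library 1 and 352 in library 2 of the overexpression label. Cd2 alone made up 53.3% and 52.5% of these reads in wildtype, 23.4% in overexpression-labelled library 1 and 56.6% in overexpression-labelled library 2. Without Cd2 the sums were 199.5 and 208 CPM, 52.2 CPM and 152.7 CPM in the same order. The 52.2 CPM were mostly Gata3 (11.97), Zap70 (10.27), Skap1 (9.23) and Cd8b1 (7.20), each higher there than in wildtype. Every gene had reads in the wildtype libraries and in overexpression-labelled library 2, whereas in overexpression-labelled library 1 a set of 10 genes had 0 reads and another 9 had 1 to 3. Overexpression-labelled library 1 lay below both wildtype libraries in 28 of the 34 genes and above both in 6, where 50.9% of all genes tested lay below and 41.4% above. A count of 0 there allows up to 0.196 CPM (3 reads, counting error only). In bulk RNA, fewer cells of a type and less RNA per cell cannot be told apart.

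**Figure D1:**
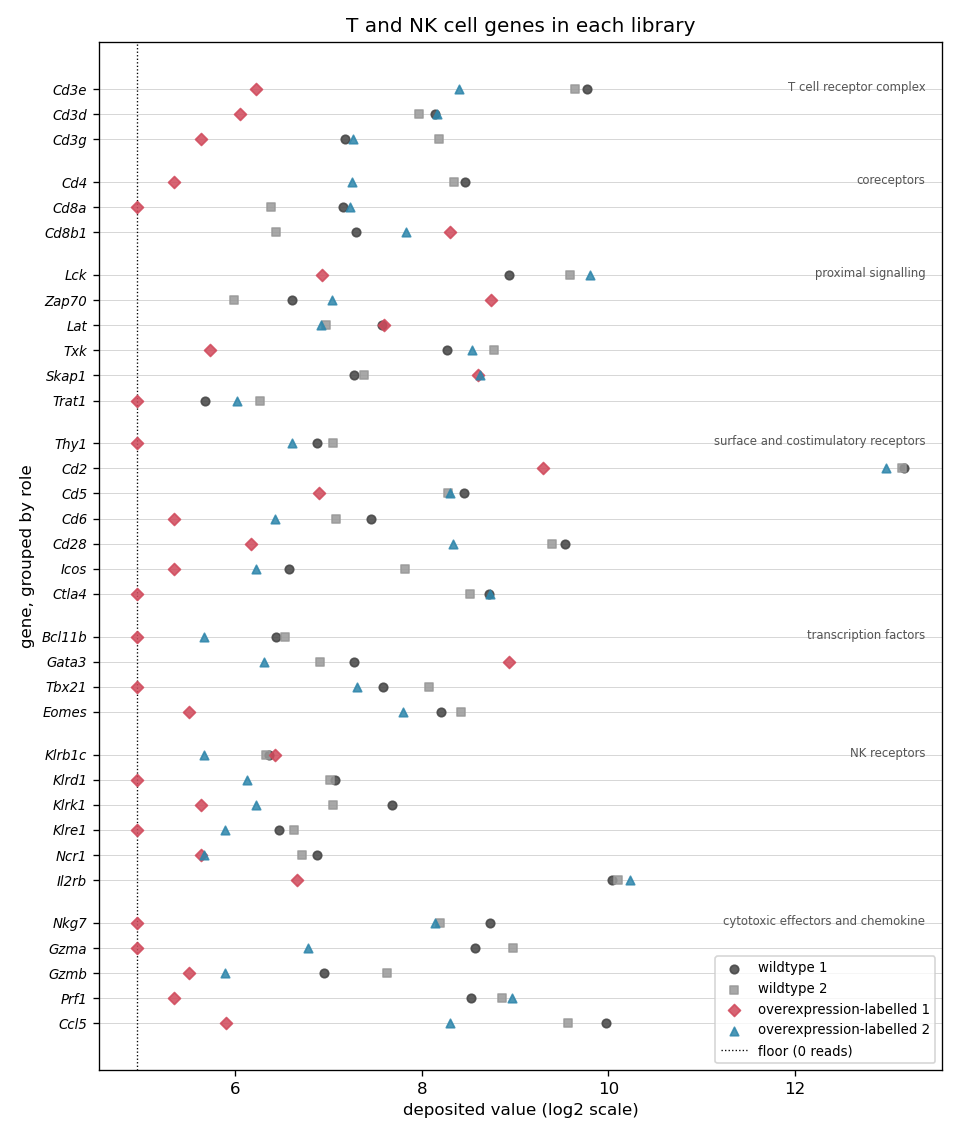
Deposited log2-scale value of each of the 34 genes (rows, grouped by role) in the 4 libraries, with the floor that stands for 0 reads as a dotted line. Overexpression-labelled library 1 (diamonds) lies below both wildtype libraries in 28 genes, 10 of them at the floor, and above both in 6.

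Of the 34 genes, 33 passed the filter on low reads and were tested among 12617 genes; Trat1 was too low. Set against the wildtype pair, 27 of the 33 fell and 4 rose in overexpression-labelled library 1 by limma at an adjusted p under 0.05, and Lat and Klrb1c did not pass. In that comparison 34.4% of all genes tested fell and 26.8% rose. The median difference of the 33 genes was -2.01 on the deposited log2 scale, against -0.15 over all genes tested, and their median log2 ratio of reads was -4.00 with 9 genes without reads set to their bound. The filter asks for reads in at least 2 libraries, so a gene low in this library alone could be tested and one present in it alone could not. With other size factors the median of all genes moved to between -0.06 and 0.02, and the same 31 calls were made. With no filter on low reads 8 of the 31 calls were kept, those of Cd3e, Cd4, Cd2, Cd28, Ctla4, Bcl11b, Klrd1 and Il2rb, and 0 of the 4 rises was called. Calls over all genes also became far fewer under that setting, and whether these genes lost calls more often than the rest was not tested.

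In overexpression-labelled library 2 the genes stayed closer to wildtype. Cd3e, Gzma and Ccl5 fell, 0 of 33 rose, and the median difference was -0.52 against 0.01 over all genes tested. Of all genes tested, 0.888% fell and 0.769% rose there. Among the 34 genes 21 lay below both wildtype libraries and 9 above both, against 37.3% and 38.7% of all genes tested. A total of 23 of the 33 tested genes lay under the wildtype mean, as did 48.5% of all genes tested. Differences of the 30 genes that did not pass ran from -1.39 to 1.30. Between the 2 groups as labelled, 0 of the 33 genes changed by limma (smallest adjusted p = 0.726), 9 had an unadjusted p under 0.05 (as did 2.22% of all genes tested), and limma-voom on the reads also called 0; of all genes tested 0% were called in either direction. The groups did not overlap in 21 of the 33, with 18 lower and 3 higher in the overexpression-labelled group. The background was 42.6% of all genes tested in either direction, 23% lower and 19.6% higher.

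**Figure D2:**
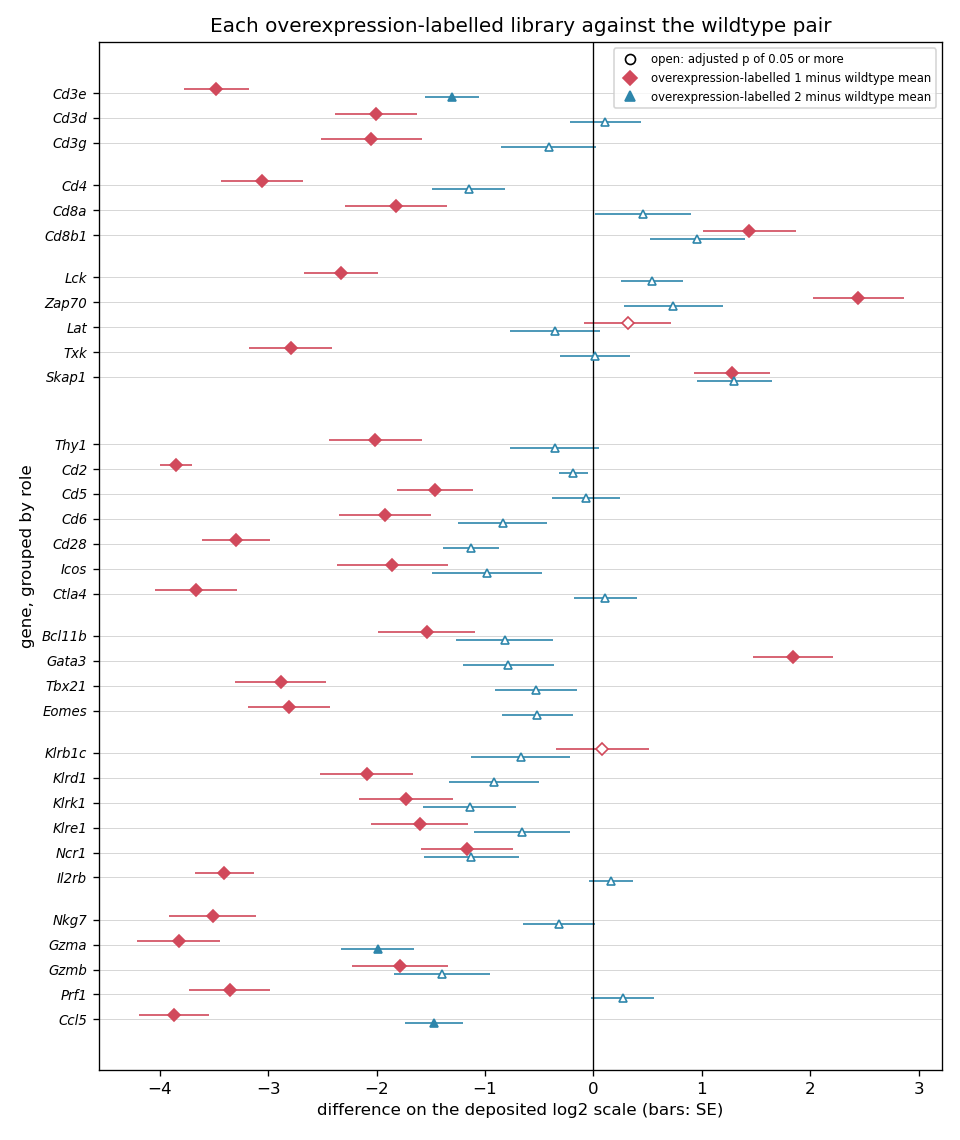
Difference of each overexpression-labelled library from the wildtype mean on the deposited log2 scale, with SE, for the 33 genes tested; filled symbols have a limma adjusted p under 0.05. Differences called in library 1 (diamonds) run from -3.87 to 2.44, and those of library 2 (triangles) from -1.99 to 1.30 with 3 called.

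Compared per kilobase of exon, the genes spanned a wide range of levels in wildtype. Cd2 stood first at 130.7 and 131.9 CPM per kb in wildtype libraries 1 and 2, which was 13.8% of the level of the B cell receptor chain Cd79a in library 2. The chemokine gene Ccl5 followed at 24.6 and 18.6 CPM per kb, then Gzma at 7.94 and 11.3, Nkg7 at 9.94 and 6.55, and Il2rb at 5.77 and 6.18. Bcl11b at 0.110 and 0.130 and Trat1 at 0.0426 and 0.151 CPM per kb were the lowest. Between the wildtype libraries the median gene differed 1.33-fold in normalised reads, and Cd3g, Cd8a, Cd8b1, Zap70, Trat1, Icos and Gzmb differed more than 2-fold, with Icos farthest apart at 3.85-fold.

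**Figure D3:**
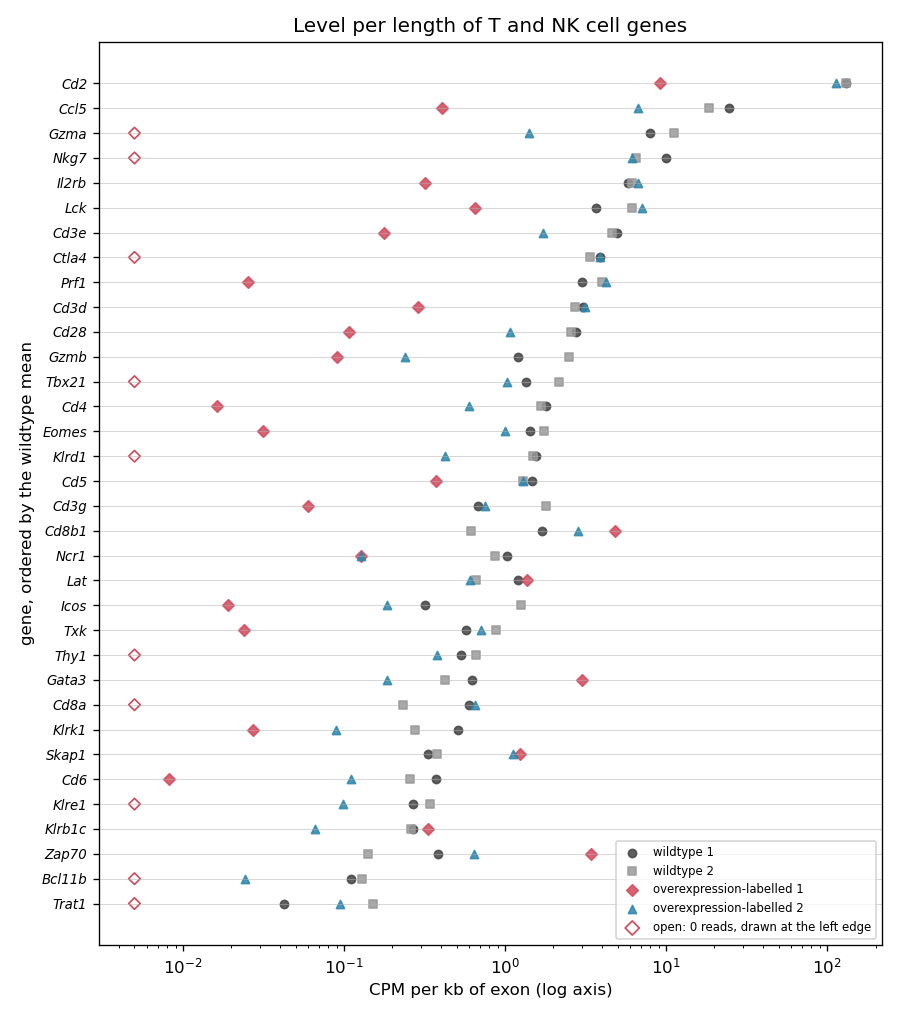
CPM per kb of exon (log axis) of the 34 genes in the 4 libraries, ordered by the wildtype mean; open symbols at the left edge stand for 0 reads. Cd2 exceeds the next gene, Ccl5, in every library, and the order seen in wildtype is not kept in overexpression-labelled library 1, where Cd8b1, Zap70 and Gata3 come next after Cd2.

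The 3 CD3 chains, which carry the signal of the T cell receptor, all fell in overexpression-labelled library 1. Cd3e (ENSMUSG00000032093.7, chr9:44998740-45009627, GRCm38) had 407 and 267 reads in wildtype libraries 1 and 2, 11 in overexpression-labelled library 1 and 142 in overexpression-labelled library 2. Both overexpression-labelled libraries were thus below both wildtype libraries. Cd3e fell by 3.48 (SE 0.302, limma adjusted p = 4.67e-07) in library 1, a 30.0-fold lower level of normalised reads, and by 1.30 (SE 0.249, limma adjusted p = 0.0246) in library 2, a 2.77-fold lower level. The fall in library 2 was lost with recomputed size factors, with totals without the ribosomal precursor Rn45s, with log2 of reads plus 0.5 and with no filter.

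Cd3d (chr9:44981786-44987339) had 112 and 70 reads in wildtype, 8 in overexpression-labelled library 1 and 116 in overexpression-labelled library 2. Only library 1 of that label was low, with a fall of 2.01 (SE 0.379, limma adjusted p = 4.80e-04), and library 2 differed by 0.11 (limma adjusted p = 0.907). Cd3g (chr9:44969572-44980431), which is transcribed away from Cd3d, had 45 and 84 reads in wildtype, 3 in overexpression-labelled library 1 and 50 in overexpression-labelled library 2. It was 22.9-fold lower in library 1 (counting interval 7.10 to 104, limma adjusted p = 0.00186), and in library 2 it lay between the wildtype values. Within the 3 chains Cd3e took 72.2% and 63.4% of the reads in wildtype but 46.1% of 308 reads in overexpression-labelled library 2. Library 1 of that label had only 22 reads of the 3 chains. Cd247, the zeta chain of the same receptor, had 100 and 68 reads in wildtype, 0 in overexpression-labelled library 1 and 43 in overexpression-labelled library 2.

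The sequences before the start sites of the CD3 genes are shown because these neighbouring genes were low together in overexpression-labelled library 1, beside Zap70, which was high there, and Gzma, which was low in both overexpression-labelled libraries. Each is the 250 bases before a RefSeq start (GRCm38.p6), written 5′ to 3′ in the direction of the gene, and for Zap70 the first of 3 starts. Capitals mark 6-letter motifs on either strand: the E-boxes CAGCTG and CAGGTG, the ETS core AGGAAG, the RUNX core TGTGGT and the GATA core AGATAA.
Cd3e (chr9:45009612-45009861, minus strand): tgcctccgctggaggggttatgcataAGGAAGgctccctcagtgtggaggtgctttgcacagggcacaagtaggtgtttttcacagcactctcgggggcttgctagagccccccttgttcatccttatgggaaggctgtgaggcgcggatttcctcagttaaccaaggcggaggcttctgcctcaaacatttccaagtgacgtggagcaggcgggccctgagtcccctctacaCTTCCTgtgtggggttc
Cd3d (chr9:44981536-44981785, plus strand): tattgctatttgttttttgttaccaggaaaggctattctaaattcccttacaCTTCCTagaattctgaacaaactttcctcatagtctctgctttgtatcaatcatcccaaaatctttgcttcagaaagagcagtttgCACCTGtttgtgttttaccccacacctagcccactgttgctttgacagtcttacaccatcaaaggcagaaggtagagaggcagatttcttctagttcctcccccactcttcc
Cd3g (chr9:44980432-44980681, minus strand): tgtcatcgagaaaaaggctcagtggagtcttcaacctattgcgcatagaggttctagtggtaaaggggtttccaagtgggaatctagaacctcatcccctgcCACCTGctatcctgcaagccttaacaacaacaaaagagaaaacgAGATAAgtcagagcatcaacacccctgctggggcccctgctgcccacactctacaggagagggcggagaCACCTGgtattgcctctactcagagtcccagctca
Zap70 (chr1:36761548-36761797, plus strand): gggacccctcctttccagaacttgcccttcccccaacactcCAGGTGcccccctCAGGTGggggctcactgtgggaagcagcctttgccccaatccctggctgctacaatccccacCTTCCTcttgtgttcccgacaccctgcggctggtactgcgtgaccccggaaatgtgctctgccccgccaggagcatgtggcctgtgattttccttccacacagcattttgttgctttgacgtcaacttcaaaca
Gzma (chr13:113100982-113101231, minus strand): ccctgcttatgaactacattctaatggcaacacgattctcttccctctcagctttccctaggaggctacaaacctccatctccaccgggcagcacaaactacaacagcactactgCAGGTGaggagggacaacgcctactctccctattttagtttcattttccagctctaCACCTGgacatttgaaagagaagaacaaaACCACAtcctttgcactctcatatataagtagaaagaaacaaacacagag

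Windows of this kind were found for 23 of the 34 genes. At their first start, CAGGTG was in 34.8% of the 23 windows and in 17.2% of all 32851 promoter windows of the same length, AGGAAG in 52.2% against 29.5%, and TGTGGT in 43.5% against 14.0%. CAGCTG was in 4.35% against 13%, and AGATAA in 4.35% against 9.99%. CAGGTG was in the windows of Cd3d and Cd3g and in that of Zap70, so it was found in genes that fell and in 1 that rose. TGTGGT was in the windows of Lck, Trat1, Klrb1c, Klrk1, Klre1, Ncr1, Nkg7, Gzma, Gzmb and Prf1. A match describes letters in the window and was tested for nothing else.

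The coreceptors divided. Cd4, which binds MHC class II and is also carried by mouse plasmacytoid dendritic cells, had 147 and 96 reads in wildtype, 1 in overexpression-labelled library 1 and 49 in overexpression-labelled library 2. Both overexpression-labelled libraries were lower than wildtype, and the fall passed in library 1 (119-fold lower, counting interval 21.3 to 4757, limma adjusted p = 1.34e-05) and not in library 2 (difference -1.15, limma adjusted p = 0.118). Cd8a (chr6:71373427-71379173), the alpha chain of the CD8 coreceptor, had 44 and 12 reads in wildtype, 0 in overexpression-labelled library 1 and 48 in overexpression-labelled library 2. Its level was at least 8.59-fold lower in library 1 (floor of 3 reads, limma adjusted p = 0.00476).

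Cd8b1 (chr6:71322788-71337494), the beta chain gene beside Cd8a on the same strand, went the other way. It had 51 and 13 reads in wildtype, 110 in overexpression-labelled library 1 and 86 in overexpression-labelled library 2. Both overexpression-labelled libraries were above both wildtype libraries, though the wildtype pair itself differed 2.83-fold. Cd8b1 rose by 1.44 (SE 0.430, limma adjusted p = 0.0108) in library 1, and in library 2 the difference of 0.96 did not pass (limma adjusted p = 0.313). The direct difference between the 2 overexpression-labelled libraries was 0.48 (limma adjusted p = 0.431). In library 1 of that label the reads of Cd8b1 thus stood without any of Cd8a, since the beta chain had 110 reads and the alpha chain 0.

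Kinases and adaptors that act just behind the T cell receptor also split. Lck, the first kinase of the pathway, had 216 and 256 reads in wildtype, 29 in overexpression-labelled library 1 and 422 in overexpression-labelled library 2. It fell by 2.33 (SE 0.341, limma adjusted p = 6.08e-05) in library 1, and library 2, the highest of the 4, differed by 0.54 (limma adjusted p = 0.384). Txk, a Tec family kinase, had 126 and 137 reads in wildtype, 4 in overexpression-labelled library 1 and 159 in overexpression-labelled library 2. Its fall in library 1 was 2.79 (SE 0.383, limma adjusted p = 3.47e-05), with library 2 between the wildtype values.

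Zap70 (ENSMUSG00000026117.10, chr1:36761798-36782818), the kinase recruited to phosphorylated CD3 chains, had 23 and 6 reads in wildtype, 157 in overexpression-labelled library 1 and 39 in overexpression-labelled library 2. Library 1 was far above the rest and library 2 just above wildtype. Zap70 rose by 2.44 (SE 0.419, limma adjusted p = 2.29e-04) in library 1, an 11.8-fold higher level of normalised reads. In library 2 the difference of 0.74 did not pass (limma adjusted p = 0.464), and library 1 exceeded library 2 by 1.70 (limma adjusted p = 0.0104), a call lost with log2 of reads plus 0.5 and with no filter.

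Skap1, an adaptor of integrin activation, had 50 and 40 reads in wildtype, 141 in overexpression-labelled library 1 and 171 in overexpression-labelled library 2. Both overexpression-labelled libraries were above both wildtype libraries, by 1.28 (SE 0.355, limma adjusted p = 0.00707) in library 1 and by 1.30 (SE 0.349, limma adjusted p = 0.0964) in library 2. Only the first passed by limma, while limma-voom called library 2 as well. A long noncoding RNA annotated on the opposite strand, 2010300F17Rik, overlaps Skap1 over 34455 bases, and whether reads were counted by strand is not given in the sources used here. Lat, the scaffold that Zap70 phosphorylates, had 67 and 26 reads in wildtype, 58 in overexpression-labelled library 1 and 34 in overexpression-labelled library 2, and did not pass in either (differences 0.32 and -0.36, limma adjusted p = 0.509 and 0.719). Trat1, an adaptor of the same receptor, had 4 and 10, 0 and 9 reads and was not tested.

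All 7 surface and costimulatory receptors fell in overexpression-labelled library 1 and 0 passed in library 2. Cd2 (ENSMUSG00000027863.8, chr3:101275899-101287939), an adhesion receptor of T, NK and mouse B cells, had 4586 and 3261 reads in wildtype, 244 in overexpression-labelled library 1 and 4053 in overexpression-labelled library 2. These are 227.6, 229.7, 15.97 and 199.1 CPM, so 3 libraries lay close together and library 1 of the overexpression label far below. Cd2 fell by 3.85 there (SE 0.147, limma adjusted p = 1.50e-10), a 15.9-fold lower level, and library 2 differed by -0.18 (SE 0.131, limma adjusted p = 0.534).

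Cd28, Ctla4 and Icos are neighbours on chromosome 1 and encode related receptors for ligands on antigen-presenting cells. Cd28 (chr1:60716800-60773359), the activating receptor, had 341 and 222 reads in wildtype, 10 in overexpression-labelled library 1 and 134 in overexpression-labelled library 2. It fell by 3.29 (SE 0.315, limma adjusted p = 1.17e-06) in library 1, and library 2 was lower by an amount that narrowly did not pass (difference -1.13, limma adjusted p = 0.0519; called by limma-voom and with a filter of 5 CPM). Ctla4 (chr1:60887000-60915832), the inhibitory receptor, had 182 and 111 reads in wildtype, 0 in overexpression-labelled library 1 and 185 in overexpression-labelled library 2. It was at least 47.6-fold lower in library 1 (limma adjusted p = 2.46e-06), and library 2 differed from wildtype by 0.11 (limma adjusted p = 0.893). Icos (chr1:60977927-61000320), an inducible costimulator, had 22 and 61 reads in wildtype, 1 in overexpression-labelled library 1 and 13 in overexpression-labelled library 2. It fell by 1.86 in library 1 (limma adjusted p = 0.0068), a value that was -1.23 without wildtype library 2.

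Thy1, a surface glycoprotein of T cells, had 32 and 28 reads in wildtype, 0 in overexpression-labelled library 1 and 23 in overexpression-labelled library 2, at least 10.03-fold lower in library 1 (limma adjusted p = 0.00132). Cd5, an inhibitory scavenger-type receptor of T and B-1 cells, had 146 and 91, 28 and 130 reads in the same order. Its fall of 1.46 in library 1 (SE 0.349, limma adjusted p = 0.00267) was the smallest of the 7, and 28 reads were left. Cd6, a related receptor beside Cd5 on chromosome 19, had 60 and 29, 1 and 18 reads and fell by 1.92 in library 1 (limma adjusted p = 0.00161).

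Of the 4 transcription factors, 3 fell and Gata3 rose in overexpression-labelled library 1. Tbx21, which directs interferon-gamma programmes in T and NK cells, had 68 and 77 reads in wildtype, 0 in overexpression-labelled library 1 and 52 in overexpression-labelled library 2. It was at least 24.8-fold lower in library 1 (limma adjusted p = 5.87e-05). Eomes, the related T-box factor of NK and memory cells, had 119 and 103, 2 and 84 reads, a 55.6-fold lower level in library 1 (counting interval 14.99 to 455, limma adjusted p = 3.07e-05). Bcl11b, which T cells need to commit to their lineage, had 18 and 15, 0 and 4 reads and was at least 5.49-fold lower in library 1 (limma adjusted p = 0.00895). In library 2 all 4 factors were below both wildtype libraries, as were 37.3% of all genes tested, and their differences there were not called. The median difference of the 4 was -0.66, against 0.01 over all genes tested.

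Gata3 (ENSMUSG00000015619.10, chr2:9857078-9890034), a factor of early T cell development, T helper cells and innate lymphoid cells, had 50 and 24 reads in wildtype, 183 in overexpression-labelled library 1 and 15 in overexpression-labelled library 2. The wildtype libraries lay between the 2 overexpression-labelled ones. Gata3 rose by 1.84 (SE 0.368, limma adjusted p = 7.59e-04) in library 1, a 5.17-fold higher level, and the difference in library 2 was -0.78 (SE 0.419, limma adjusted p = 0.387). Library 1 exceeded library 2 by 2.63 (limma adjusted p = 3.46e-04). An annotated antisense transcript, Gm13256, overlaps Gata3.

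Among NK receptors 5 of 6 fell in overexpression-labelled library 1, and Klrb1c did not pass. Il2rb, the beta chain of the receptors for IL-2 and IL-15, had 498 and 376 reads in wildtype, 21 in overexpression-labelled library 1 and 582 in overexpression-labelled library 2. It fell by 3.40 (SE 0.274, limma adjusted p = 2.17e-07) in library 1, a 20.6-fold lower level, and library 2 differed by 0.17 (limma adjusted p = 0.739). The 4 lectin-like genes of the NK gene complex on chromosome 6 had few reads anywhere. Klrd1, which encodes CD94, had 40 and 27 reads in wildtype, 0 in overexpression-labelled library 1 and 11 in overexpression-labelled library 2. Klrk1, which encodes NKG2D, had 74 and 28, 3 and 13 reads, and Klre1 had 19 and 17, 0 and 7. These 3 genes were lower in both overexpression-labelled libraries and passed in library 1 (limma adjusted p = 9.22e-04, 0.00387 and 0.00698) and not in library 2.

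Klrb1c, which encodes the marker NK1.1 in strains that have it, had 16 and 11 reads in wildtype, 15 in overexpression-labelled library 1 and 4 in overexpression-labelled library 2. Library 1 differed from wildtype by 0.08 (limma adjusted p = 0.88), whereas those 3 genes of the complex fell. Gm44511, annotated as protein-coding on the same strand, overlaps Klrb1c over 8931 bases and was not among the gene rows. Ncr1, which encodes the NK receptor NKp46, had 32 and 19 reads in wildtype, 3 in overexpression-labelled library 1 and 4 in overexpression-labelled library 2. It was the member on which the 2 overexpression-labelled libraries were closest among those that fell, at 8.26-fold lower in library 1 (counting interval 2.71 to 42.0, limma adjusted p = 0.0301) and 7.38-fold lower in library 2 (limma adjusted p = 0.228). Ly49 genes of NK cells had few reads in any library. Klra7 had 6 and 18 reads in wildtype, 9 in overexpression-labelled library 1 and 1 in overexpression-labelled library 2, and it passed in neither. Klra9 had 7 and 2, 0 and 0 reads, and Klra4 and Klra8 had 0 in all 4 libraries.

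All 5 cytotoxic and chemokine genes fell in overexpression-labelled library 1, with a median difference of -3.51, and together they went from 50.2 and 49.1 CPM in wildtype to 0.589 CPM. Gzma (ENSMUSG00000023132.8, chr13:113093825-113100981), a granule protease, had 161 reads in each wildtype library, 0 in overexpression-labelled library 1 and 29 in overexpression-labelled library 2. It was at least 54.4-fold lower in library 1 (limma adjusted p = 1.80e-06) and fell by 1.99 in library 2 (SE 0.340, limma adjusted p = 0.0137), a 6.71-fold lower level. Ccl5 (ENSMUSG00000035042.2, chr11:83525778-83530518), a chemokine of activated T and NK cells, had 476 and 253 reads in wildtype, 6 in overexpression-labelled library 1 and 131 in overexpression-labelled library 2. It fell by 3.87 in library 1 (SE 0.320, limma adjusted p = 2.86e-07) and by 1.47 in library 2 (SE 0.266, limma adjusted p = 0.0190). In library 2 the fall of Ccl5 was lost under the same settings as that of Cd3e, and that of Gzma only with no filter.

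Prf1, the pore-forming protein of the same granules, differed from Gzma in overexpression-labelled library 2. It had 156 and 147 reads in wildtype, 1 in overexpression-labelled library 1 and 224 in overexpression-labelled library 2. Prf1 was 153-fold lower in library 1 (counting interval 26.6 to 5927, limma adjusted p = 4.98e-06), and library 2 was the highest of the 4 (difference 0.27, limma adjusted p = 0.696). Gzmb, another granzyme, had 35 and 51, 2 and 7 reads and was low in both overexpression-labelled libraries, 22.5-fold in library 1 (counting interval 5.70 to 178, limma adjusted p = 0.00355) and 7.64-fold in library 2 (limma adjusted p = 0.149). Nkg7, a granule membrane protein, had 183 and 85, 0 and 114 reads, at least 42.6-fold lower in library 1 (limma adjusted p = 6.49e-06). In library 2, then, Gzma and Gzmb lay below both wildtype libraries while Prf1 lay above both; that contrast between genes was not tested.

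The 2 overexpression-labelled libraries were also compared directly, with the spread taken from the wildtype pair. Library 1 was lower in 19 of the 33 genes and higher in 2, Zap70 and Gata3, where 30.1% of all genes tested were lower and 22.4% higher. The median difference was -1.65 against -0.14 over all genes tested. On the deposited log2 scale, which compresses the differences of genes with few reads and so does not order genes by fold, the largest differences were those of Ctla4 (-3.78, limma adjusted p = 8.68e-06), Cd2 (-3.67, 1.78e-09), Prf1 (-3.62, 1.05e-05) and Il2rb (-3.57, 5.23e-07). Cd8b1, Lat, Skap1, Cd6, Icos, Bcl11b, Klrb1c, Klrd1, Klrk1, Klre1, Ncr1 and Gzmb did not pass. This comparison shares library 1 and the wildtype spread with the comparison against wildtype, and with no filter 3 of its 21 calls were kept. Here too, calls over all genes became far fewer with no filter.

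Genes that cells of the B lineage may express were counted apart, as Cd2, Cd5, Cd6, Thy1, Lck, Zap70, Lat, Klrk1 and Tbx21. In overexpression-labelled library 1, 7 of these 9 lay below both wildtype libraries and 2, Zap70 and Lat, above both. Of the 23 genes outside this list and outside Cd4 and Cd8a, 19 lay below both and 4 above both. Of all genes tested, 50.9% lay below both and 41.4% above both. The median difference was -1.92 for the 9 genes and -2.07 for the 22 tested genes outside, against -0.15 over all genes tested. With the untested Trat1, these 23 genes summed to 156 and 162.3 CPM in wildtype, against 34.1 in library 1 and 112.1 in library 2 of the overexpression label. The sum in library 1 was mostly Gata3 (11.97 CPM), Skap1 (9.23 CPM) and Cd8b1 (7.20 CPM), each higher there than in wildtype. In library 2, 6 of the 9 genes lay below both wildtype libraries and 2 above both, where 37.3% and 38.7% of all genes tested did. The median difference in library 2 was -0.36 for the 9 genes and -0.66 for the 22 tested genes outside. Whether these lists differed was not tested.

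Further genes of T cells, drawn from a list of 27, were counted beside the 34. Of 20 tested, 15 fell and 3 rose in overexpression-labelled library 1 (median -1.76). In that library 34.4% of all genes tested fell and 26.8% rose. Tigit, an inhibitory receptor of T and NK cells, had 144 and 166 reads in wildtype, 0 in overexpression-labelled library 1 and 132 in overexpression-labelled library 2. The rises were those of Prkcq, a kinase of T cell receptor signalling (34 and 30 reads in wildtype, 465 in library 1), Ubash3a, a phosphatase that restrains it (2 and 5 against 278), and Lef1, a factor of T and early B cells (148 and 95 against 6025). In library 2 only Lef1 passed, with a fall of 1.51 (limma adjusted p = 0.0487) that was lost with recomputed size factors. The median difference of the 20 genes there was 0.12, and 11 of the 24 in the tables lay below both wildtype libraries and 11 above both. Shares of all genes tested were 37.3% below both and 38.7% above both. Trac, Trbc1 and Trbc2, the constant regions of the receptor chains, were not analysed here.

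Of 33 further NK genes, 20 were tested, of which 13 fell and 1 rose in overexpression-labelled library 1 (median -1.91) and 0 passed in library 2. Over all genes tested, 34.4% fell and 26.8% rose in library 1, and 0.888% fell and 0.769% rose in library 2. Ccl3, a chemokine also made by B and myeloid cells, had 1184 and 711 reads in wildtype, 8 in overexpression-labelled library 1 and 716 in overexpression-labelled library 2. Tyrobp, the DAP12 adaptor of NK and myeloid receptors, had 1059 and 533, 58 and 766 reads. Xcl1, a chemokine of NK and CD8 T cells, had 47 and 68, 2 and 52. Cd244, a receptor of NK cells, was the gene that rose, with 57 and 26 reads in wildtype, 313 in library 1 and 20 in library 2 (difference 2.44 in library 1, limma adjusted p = 5.43e-05). With no filter, library 1 gave 8 calls among these T cell genes in place of 18, and 5 among these NK genes in place of 14. Calls over all genes likewise became far fewer there.

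Markers of some other cells moved in the same libraries. Monocyte and macrophage markers summed to 30.6 and 44.5 CPM in wildtype, 34.2 in overexpression-labelled library 1 and 207 in overexpression-labelled library 2. The sum in library 2 was mostly Lyz2 (198.7 CPM). Of the 6 genes, 3 (Csf1r, Ccr2 and Adgre1) lay below both wildtype libraries there and 2 (Lyz2 and Cd14) above both. Of all genes tested, 37.3% lay below both and 38.7% above both. Plasma cell markers summed to 293 and 320 CPM in wildtype, 118 in library 1 and 330 in library 2. In library 1 Jchain was 44.7-fold, Prdm1 2.62-fold and Xbp1 1.96-fold lower, while Sdc1 was 9.31-fold higher. Erythroid markers summed to 3.92 and 4.79, 5.50 and 4.23 CPM in the same order. They were mostly Alas2, which differed by 0.18 in library 1 and 0.04 in library 2, and Hba-a1 and Hbb-bs had 0 reads in every library. B cell markers (Cd79a, Cd79b, Pax5, Ebf1, Ms4a1, Cd22 and Blnk) summed to between 3322 and 3729 CPM in wildtype and overexpression-labelled library 2 and to 2511 CPM in overexpression-labelled library 1, with 0 of 7 at 0 reads. These sums hide changes in both directions in library 1, where 4 of the 7 lay below both wildtype libraries and 3 above both. Of all genes tested, 50.9% lay below both there and 41.4% above both. Ms4a1, which encodes CD20, was 55.6-fold lower, Blnk 8.14-fold, Cd79a 2.48-fold and Cd22 1.90-fold lower, while Cd79b, Pax5 and Ebf1 were higher. The part of these changes in the results for T and NK cell genes was not tested. The 7 T cell markers summed to 45.0 and 43.0 CPM in wildtype, 8.70 in overexpression-labelled library 1 and 26.2 in overexpression-labelled library 2, and 6 NK cell markers to 4.12 and 4.93, 1.24 and 1.97 CPM. In library 1 the T cell sum was mostly Cd8b1 (7.20 CPM), and Cd247 and Cd8a were at 0. The NK cell sum there was mostly Klrb1c (0.982 CPM), and Klra4 and Klra8 were at 0 in all 4 libraries. Plasmacytoid dendritic cell markers summed to 935 and 766 CPM in wildtype, 254 CPM in library 1 (median difference -2.79) and 822 CPM in library 2. The sum in library 1 was mostly Tcf4 (151.7 CPM), Spib (50.19 CPM) and Irf8 (38.48 CPM), and it does not show how far each gene fell. Siglech went from 56.04 and 22.61 CPM in wildtype to 0.262 CPM there, and Pacsin1 from 12.21 and 12.05 CPM to 0.0654 CPM, while Bst2 differed by -0.28. The part of these markers in the low Cd4 and Cd8a of library 1 was not tested. Neutrophil markers, of which all 8 tested were called higher in library 2, summed to 6.20 and 108 CPM in wildtype, 136 CPM in library 1 and 1589 CPM in library 2; their part in the lower Cd3e, Gzma and Ccl5 of library 2 was not tested.

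**Figure D4:**
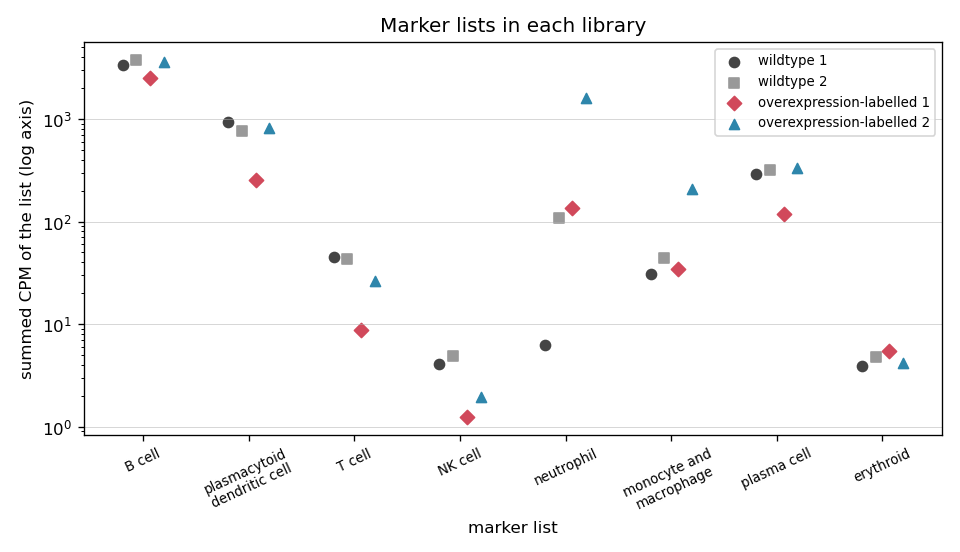
Summed CPM (log axis) of 8 marker lists in each library. The B cell sum lies between 2511 and 3729 CPM in all 4 libraries although its 7 genes changed in both directions in overexpression-labelled library 1, the T cell sum goes from 45.0 and 43.0 CPM in wildtype to 8.70 CPM in overexpression-labelled library 1, and neutrophil markers reach 1589 CPM in overexpression-labelled library 2.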

How the data were processed

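RNA was sequenced from B220-positive marrow B cells in 2 wildtype and 2 overexpression-labelled libraries, grouped by the genotype label, of which 1 wildtype label is misspelled. STAR, HTSeq, DESeq2 and the mm10 build are named for the authors' work, per the submitters' processing notes; versions, settings and annotation are not given in the sources used here. What the authors deposited is 1 log2 value per gene and library, bounded below at 4.95 where there are no reads, in the form of a variance stabilizing transformation. Inverting it gave whole reads for 100% of values within 0.01, and reads, CPM and folds in the text are these recovered reads. One table's column header differs from its sample's title in a digit; the file was taken as deposited for that sample.

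A gene was tested if 2 or more libraries had the equivalent of 10 reads in a library of median size and all 4 together had 15 (12617 genes). Because the files hold log2 values and not counts, genes were compared by limma with a mean-variance trend (version 3.58.1, in R 4.3.3), two-sided, with Benjamini-Hochberg adjustment over all genes tested, no covariate and no further pseudocount. Differences on this scale understate changes of genes with few reads. The fits were tried on simulated reads with the same spread setting for every gene. Only genes with many wildtype reads were changed there, so members with few reads were not covered. Bounds for genes without reads use 3 reads per library, and 95% counting intervals (exact, conditional on the sum) cover counting error only. Alternatives were limma-voom, other size factors, a pseudocount of 0.5, other filters, a robust prior and leaving out libraries. Every member was named, and the members and lists were chosen with earlier results of these data known; 1 gene of the B cell marker list and 1 of the further T cell genes are not reported here. The direct comparison of the 2 overexpression-labelled libraries, and the promoters shown, were chosen after seeing the data. Exon lengths and coordinates come from GENCODE on GRCm38, and promoter sequences from RefSeq on GRCm38.p6. The depth of 14196665 to 20356404 reads leaves counting error large for members with few reads.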

Additional observations from a re-analysis of the deposited data

How the results depend on the processing

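For overexpression-labelled library 1 against wildtype, 31 of 33 members passed with limma-voom, recomputed size factors, totals without Rn45s, a pseudocount of 0.5 or a robust prior, and no called difference changed sign. With no filter 8 passed, and with 5 CPM in at least 2 libraries all 16 members tested passed, fewer because fewer were tested. For library 2 the 3 calls became 5 by limma-voom, 1 with recomputed size factors, 1 with totals without Rn45s, 1 with a pseudocount of 0.5 and 0 with no filter; the cause was not tested. Between the 2 overexpression-labelled libraries 21 calls became 3 with no filter, and Skap1 turned to 0.079 with recomputed size factors and to 0.155 with totals without Rn45s, where Ncr1 turned to 0.0106. In the group comparison Lat turned to 0.0193 and 0.0481 under those 2 scalings. With no filter, calls over all genes became fewer in both single-library comparisons and between the 2 overexpression-labelled libraries. Leaving out 1 library at a time changed the differences between groups. Without 1 overexpression-labelled library this is the comparison of the other alone against the wildtype pair, reported above, and no separate check. The group difference then ran from -2.01 to 0.11 for Cd3d, -1.82 to 0.46 for Cd8a, -3.67 to 0.11 for Ctla4, -0.78 to 1.84 for Gata3, -3.40 to 0.17 for Il2rb, -0.67 to 0.0811 for Klrb1c, -0.36 to 0.32 for Lat, -2.33 to 0.54 for Lck, -3.35 to 0.27 for Prf1 and -2.79 to 0.015 for Txk. Leaving out a wildtype library in the single-library comparisons leaves no residual degrees of freedom, so only values were computed, and no called one changed sign. No paired analysis was possible because the labels give no replicate numbers. Depth limits members under about 10 reads.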
